A study of Mus musculus with 15 samples.

Results

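Itgam, Itgax, Itgad, Itgal and Itgb2 encode the subunits of the beta2 integrins, the adhesion receptors that only leukocytes make. They were chosen by name, 5 of the 22165 genes in the count table, as the genes of this receptor family, most of which lie around Itgax on mouse chromosome 7, and all 5 passed the filter on low counts. Itgam was listed with its difference between the genotypes already known in these libraries, so its genotype values are a description and carry no p-value here. RNA was read as 3′ tags in 15 libraries of dendritic cells (DC) sorted from mouse thymus, in 6 groups: conventional DC of type 1 (cDC1) from 2 KO and 2 WT samples, conventional DC of type 2 (cDC2) from 3 KO and 2 WT samples, and plasmacytoid DC (pDC) from 3 KO and 3 WT samples. KO mice were Itgax-cre Stk11 fl/fl: Stk11, which encodes the kinase LKB1, is flanked by loxP sites and is cut by a Cre recombinase made under the promoter of Itgax. The controls are labelled WT, with no statement on whether they carried the Cre transgene. All mice were C57BL/6 of both sexes. All of them, WT included, received Flt3L-secreting B16 melanoma cells under the skin at 8 to 12 weeks of age to expand their DC, and thymi were taken 9 to 12 days later.

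Members of the family used to isolate the cells set limits on what can be read from them. CD11c, the product of Itgax, was the target of the enrichment beads in every group, and the pDC gate took Siglec-H-positive cells with intermediate CD11c. CD11b, the product of Itgam, defined the cDC2 gate together with CD11c and MHC class II, while the cDC1 gate took CD8a-positive cells. Differences in Itgam and Itgax between subsets are therefore descriptions of the sort. The Itgax-cre strain in wide use carries its Cre on a bacterial artificial chromosome with the Itgax locus. The content of the transgene in these mice is not given in the sources used here, and reads from a transgene copy of a gene and from its own locus cannot be told apart in the counts. The transgene and the loss of LKB1 cannot be told apart either, in any comparison of KO with WT.

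A beta2 integrin is a pair of 1 alpha chain and the shared beta chain CD18, the product of Itgb2, without which none of the alpha chains reaches the cell surface. With CD11a (Itgal) it forms LFA-1, which binds ICAM molecules and holds T cells to antigen-presenting cells. With CD11b (Itgam) it forms Mac-1, or complement receptor CR3, and with CD11c (Itgax) it forms CR4; both bind complement-coated particles and fibrinogen. With CD11d (Itgad) it forms a receptor found on some macrophages. In mouse DC, CD11c is the standard lineage marker and CD11b marks cDC2.

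In GRCm38, the assembly of the mm10 build named in the submitters' processing notes, Itgam lay on the forward strand at chr7:128062640-128118491, Itgax at chr7:128129547-128150657 and Itgad at chr7:128154376-128223816, one after the other in the same direction. Itgal lay further upstream on the same strand, at chr7:127296260-127335138, and Itgb2 on another chromosome, at chr10:77530252-77565708. The 3′ end of each gene was distinct: of the 451 words of 50 bases in the last 500 bases of each gene's longest transcript, 0 were found in a transcript of another gene.

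Itgam and Itgax are neighbours with unequal genotype differences in these libraries, so their promoters are shown together: the 250 bases before the annotated transcription start from RefSeq (GRCm38.p6), at chr7:128062390-128062639 for Itgam and chr7:128129300-128129549 for Itgax, both on the forward strand. Of the 5 genes, these 2 were in the promoter table. Capitals mark every match, on either strand, to GAGGAA, the core bound by the myeloid factor PU.1, to TGANTCA, the AP-1 site, and to GGGCGG, the Sp1 site. These 3 motifs do not overlap in the matches shown.
Itgam: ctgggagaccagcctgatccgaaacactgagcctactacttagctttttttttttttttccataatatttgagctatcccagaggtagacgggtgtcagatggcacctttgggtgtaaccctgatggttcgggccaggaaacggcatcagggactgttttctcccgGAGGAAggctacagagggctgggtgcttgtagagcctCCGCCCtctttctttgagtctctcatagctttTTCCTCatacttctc
Itgax: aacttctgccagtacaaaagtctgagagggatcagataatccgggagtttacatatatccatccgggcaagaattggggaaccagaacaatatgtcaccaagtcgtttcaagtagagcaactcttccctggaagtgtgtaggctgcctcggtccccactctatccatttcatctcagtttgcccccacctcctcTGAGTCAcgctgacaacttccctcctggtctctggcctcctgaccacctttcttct
The Itgam window held GAGGAA at positions −84 and −15 from the start, and GGGCGG at −47. The Itgax window held TGANTCA at −56. Of 32851 promoters, 23.3% held GAGGAA, 6.75% held TGANTCA and 32.7% held GGGCGG, and a match here is a description of the letters and not a bound site.

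Total counts ran from 3928164 (cDC2 WT 1) to 12142712 (cDC2 KO 2), and levels are given in CPM, a gene's reads over the TMM-scaled library total on the usual scale of counts-per-million values. A 3′ tag gives 1 place per transcript, so CPM is compared between samples for 1 gene and not between genes. Nothing in the labels places the samples in separate mice, so each p-value measures the spread between samples, which may be technical. Tests are those of edgeR (quasi-likelihood), adjusted by the Benjamini-Hochberg method for the 11746 genes tested, with a threshold of 0.05. Log2 differences carry a standard error worked back from the test, as the size of the difference over the square root of its F statistic. In bulk samples, fewer cells that express a gene and less RNA per cell cannot be told apart. The summed level of 10 cDC1 marker genes was 3882 to 4662 CPM in cDC1 KO and 5319 to 5616 CPM in cDC1 WT, against 344 to 2153 CPM in the other groups. The sum of 10 pDC markers was 37786 to 43316 CPM in pDC KO and 34698 to 55474 CPM in pDC WT, against 908 to 1875 CPM elsewhere. The cDC2 list went against its label: it summed to 628 to 822 CPM in cDC2 KO and 642 to 767 CPM in cDC2 WT, but to 914 to 932 CPM in pDC KO and 829 to 949 CPM in pDC WT. Stk11 itself averaged 24.5 ± 8.65 CPM in cDC1 KO and 44.9 ± 13.2 CPM in cDC1 WT, 31.2 ± 4.29 CPM in cDC2 KO and 34.6 ± 0.501 CPM in cDC2 WT, and 37.8 ± 5.25 CPM in pDC KO and 51.4 ± 13.7 CPM in pDC WT (SD, n = 2 and 2, 3 and 2, 3 and 3). None of its 3 differences passed the test, and since the labels do not place the deleted exons, 3′ tags of Stk11 check nothing about the deletion.

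Itgam, the gene of CD11b, was higher in every KO library than in every WT library of the same subset, as were 0.443% of all tested genes. In pDC its level was 65.4, 68.7 and 63.4 CPM in the KO libraries, against 7.81, 2.97 and 4.65 CPM in the WT libraries. The pDC KO libraries lay close together and far above the pDC WT libraries. In cDC1 it was 13.1 and 9.92 CPM in KO, from 100 and 68 reads, against 1.88 and 0.364 CPM in WT, from 8 and 2 reads. In cDC2, where the gate required CD11b, it was 212, 260 and 161 CPM in KO, against 105 and 102 CPM in WT. The log2 difference, KO minus WT, was 3.68 ± 0.38 in pDC (a 12.8-fold higher fitted level), 3.43 ± 0.57 in cDC1 (10.8-fold) and 1.03 ± 0.39 in cDC2 (2.04-fold). The cDC1 WT libraries held 10 Itgam reads in all, and the cDC1 difference was 2.61 with cDC1 WT 2 left out and 4.91 with cDC1 WT 1 left out.

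Among the 6 groups, Itgam ran in the order cDC2 KO, cDC2 WT, pDC KO, cDC1 KO, pDC WT and cDC1 WT, with group means of 211, 103, 65.8, 11.5, 5.14 and 1.12 CPM. No library of any group reached into the range of the next, and for how many of all genes this holds was not counted. By their means, KO pDC stood nearer to WT cDC2 than to WT pDC on the log scale. The fitted step between cDC2 and another subset was smaller in KO than in WT. It was 4.19 ± 0.46 in KO and 6.59 ± 0.58 in WT for cDC2 minus cDC1. The WT value of this step ran from 5.76 to 8.13 over left-out libraries. In pDC minus cDC2 the step was −1.68 ± 0.34 in KO and −4.33 ± 0.41 in WT. For pDC minus cDC1 the Itgam difference was 2.51 ± 0.42 in KO and 2.27 ± 0.56 in WT, and the WT value was 1.44 with cDC1 WT 2 left out and 3.78 with cDC1 WT 1 left out. The genotype difference in pDC exceeded that in cDC2 by 2.65 ± 0.52 on the log2 scale, and that in cDC1 by 0.25 ± 0.76. No difference between subsets in the genotype difference of Itgam passed edgeR's test.

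Gm49368, an annotated gene on the same strand, starts with Itgam and runs on towards Itgax, at chr7:128062683-128128160. It shares 3450 exon bases with Itgam, which is 68.7% of the Itgam exon length and 71.8% of its own, and how the authors' counting treated shared bases is not given in the sources used here. Its level was 2.1, 1.25 and 1.23 CPM in pDC KO, against 0.13, 0.129 and 0 CPM in pDC WT. In cDC1 it was 1.7 and 3.65 CPM in KO and 2.11 and 0.728 CPM in WT, which overlap. In cDC2 it was 7.56, 10.7 and 3.63 CPM in KO and 4.37 and 2.56 CPM in WT. With the Gm49368 reads added to Itgam, the Itgam difference was 2.52 in cDC1 and 3.68 in pDC.

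Itgax, the gene of CD11c, varied far less. In cDC2 its level was 244, 244 and 254 CPM in KO, against 183 and 147 CPM in WT. In pDC it was 184, 190 and 199 CPM in KO, against 157, 160 and 113 CPM in WT. In cDC1 it was 135 and 158 CPM in KO, against 158 and 157 CPM in WT. The KO libraries of cDC2 and pDC lay above the WT libraries of their subset, as they did for 23.1% of all genes in cDC2 and 5.76% in pDC, and those of cDC1 did not. The log2 differences were 0.58 ± 0.25 in cDC2 (adjusted p = 0.332), 0.42 ± 0.22 in pDC (adjusted p = 0.528) and −0.11 ± 0.27 in cDC1 (adjusted p = 1), and none passed the test. An interval of 2 standard errors spans 0.08 to 1.09 in cDC2, −0.03 to 0.86 in pDC and −0.65 to 0.44 in cDC1. Itgax did not differ detectably between the WT subsets either, with log2 differences between −0.21 and 0.07. The order of the means was cDC2 KO at 247 CPM, pDC KO at 191 CPM, cDC2 WT at 165 CPM, cDC1 WT at 158 CPM, cDC1 KO at 146 CPM and pDC WT at 143 CPM, and from cDC2 WT down each group overlapped the next. Itgax is the gene that lies between Itgam and Itgad, and in pDC its log2 difference of 0.42 ± 0.22 stood beside 3.68 ± 0.38 for Itgam.

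Itgad, the gene of CD11d, was highest in pDC. Its level was 29.5, 53.5 and 47.8 CPM in pDC KO and 19.5, 59.9 and 15.4 CPM in pDC WT, 10.6, 4.63 and 3.34 CPM in cDC2 KO and 2.43 and 2.86 CPM in cDC2 WT, and 1.31 and 3.79 CPM in cDC1 KO and 0.235 and 1.46 CPM in cDC1 WT. All 6 pDC libraries lay above all 9 cDC libraries, and the share of all genes with this separation was not counted. In WT mice Itgad was higher in pDC than in cDC1 by 5.11 ± 0.85 on the log2 scale (adjusted p = 0.000229) and than in cDC2 by 3.56 ± 0.74 (adjusted p = 0.00181). In KO mice it was higher in pDC than in cDC1 by 4.10 ± 0.75 (adjusted p = 0.000581) and than in cDC2 by 2.82 ± 0.58 (adjusted p = 0.00134). Limma voom did not call the WT difference between pDC and cDC2. Between the genotypes, KO exceeded WT by 1.48 ± 0.91 in cDC1 (adjusted p = 1), 1.20 ± 0.70 in cDC2 (adjusted p = 0.482) and 0.47 ± 0.53 in pDC (adjusted p = 0.828) on the log2 scale, none past the test. Leaving out 1 library moved these Itgad values to between 0.54 (cDC1 KO 2 left out) and 3.34 (cDC1 WT 2) in cDC1, between 0.59 (cDC2 KO 1) and 1.49 (cDC2 KO 3) in cDC2, and between 0.12 (pDC WT 3) and 1.32 (pDC WT 2) in pDC. The KO libraries of cDC2 lay above both WT libraries, as they did for 23.1% of all genes, and the groups overlapped in cDC1 and pDC. In the order of the Itgad means, pDC KO overlapped pDC WT, cDC2 WT overlapped cDC1 KO, and cDC1 KO overlapped cDC1 WT. The cDC2 KO libraries were apart from their neighbours in this order, pDC WT and cDC2 WT. They overlapped cDC1 KO, with a lowest cDC2 KO value of 3.34 CPM and a highest cDC1 KO value of 3.79 CPM. For how many of all genes such gaps hold was not counted.

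Itgal, the gene of CD11a in LFA-1, was also highest in pDC. It stood at 261, 245 and 426 CPM in pDC KO and 216, 205 and 297 CPM in pDC WT, at 105 and 91.7 CPM in cDC1 KO and 151 and 127 CPM in cDC1 WT, and at 64.5, 34 and 29.8 CPM in cDC2 KO and 62.6 and 47.6 CPM in cDC2 WT. The subsets stood in the same order in both genotypes, pDC above cDC1 above cDC2, with no overlap between subsets. The share of all genes without such overlap was not counted. In KO mice Itgal was higher in pDC than in cDC1 by 1.66 ± 0.36 (adjusted p = 0.00289) and than in cDC2 by 2.86 ± 0.33 (adjusted p = 4e-06), and cDC2 minus cDC1 was −1.20 ± 0.34 (adjusted p = 0.108). In WT mice it was higher in pDC than in cDC2 by 2.12 ± 0.37 (adjusted p = 0.000452) and lower in cDC2 than in cDC1, at −1.33 ± 0.39 (adjusted p = 0.0387), while pDC minus cDC1 was 0.79 ± 0.35 (adjusted p = 0.108). The WT difference between cDC2 and cDC1 fell short of the threshold without cDC2 KO 2, without either cDC2 WT library and without any of the 4 cDC1 libraries, at −1.55 to −1.15. Between the genotypes, KO minus WT was −0.50 ± 0.38 in cDC1 (adjusted p = 1), −0.37 ± 0.35 in cDC2 (adjusted p = 0.698) and 0.38 ± 0.31 in pDC (adjusted p = 0.73). The cDC1 KO libraries lay below the cDC1 WT libraries, as they did for 17.8% of all genes, and the genotypes overlapped in cDC2 and pDC.

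Itgb2, the gene of the shared CD18 chain, was the most even of the 5. It stood at 145 and 119 CPM in cDC1 KO and 122 and 165 CPM in cDC1 WT, at 114, 104 and 96.3 CPM in cDC2 KO and 113 and 69.9 CPM in cDC2 WT, and at 110, 107 and 90.5 CPM in pDC KO and 116, 97.1 and 117 CPM in pDC WT. The genotypes overlapped in all 3 subsets. KO minus WT was −0.12 ± 0.30 in cDC1 (adjusted p = 1), 0.20 ± 0.28 in cDC2 (adjusted p = 0.816) and −0.10 ± 0.25 in pDC (adjusted p = 0.954), with intervals of 2 standard errors from −0.73 to 0.48, from −0.36 to 0.76 and from −0.60 to 0.39. In pDC, these limits on the beta chain stood beside the fitted 12.8-fold difference of the Itgam alpha chain. No difference of Itgb2 between subsets passed the test, and the largest in WT was −0.66 ± 0.31 for cDC2 minus cDC1 (adjusted p = 0.185). The highest means were those of cDC1, 132 CPM in cDC1 KO and 144 CPM in cDC1 WT, which overlapped each other, with cDC1 KO apart from the next group, and the 4 groups below, pDC WT, cDC2 KO, pDC KO and cDC2 WT in that order, each overlapped the next.

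**Figure D1:**
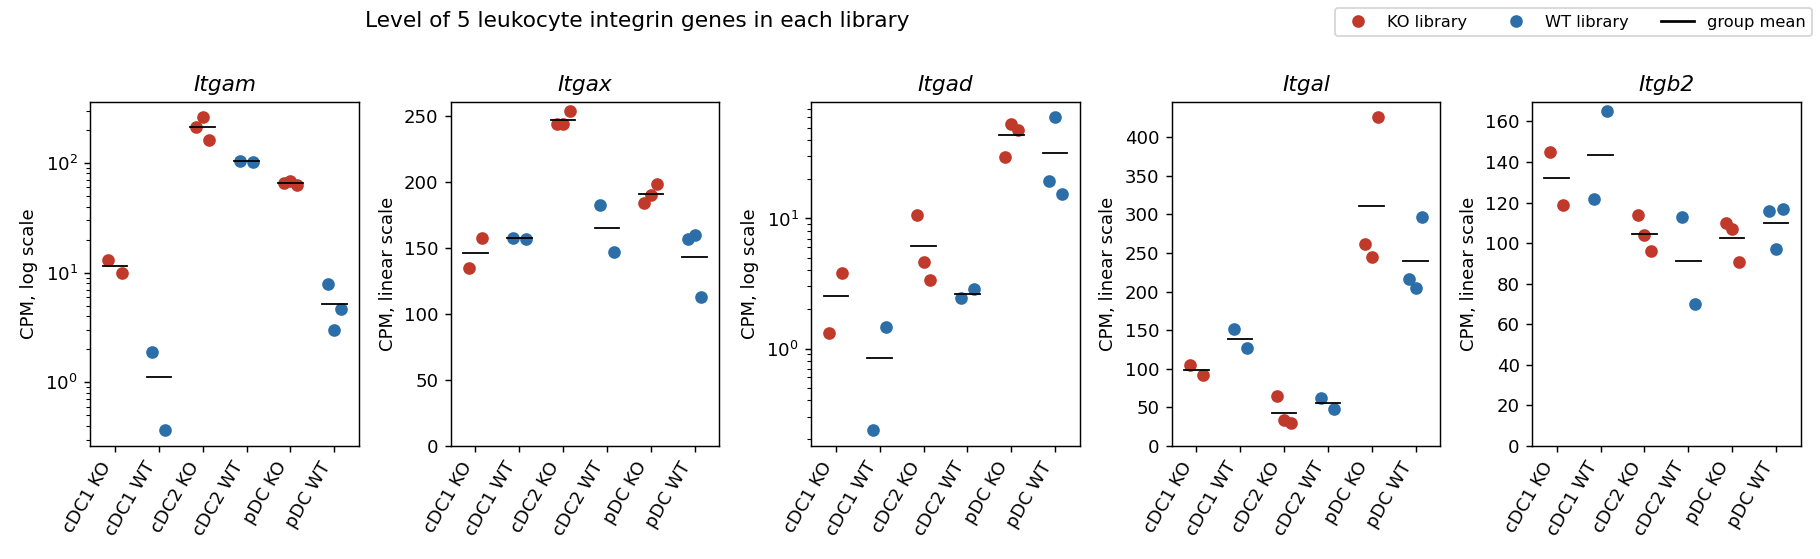
Level of the 5 integrin genes in CPM in each library, by subset and genotype, with a point per library, a bar at the group mean, a log axis for Itgam and Itgad and a linear axis from 0 for the others. Itgam separates KO from WT in each subset, with 63.4 to 68.7 CPM in pDC KO and 2.97 to 7.81 CPM in pDC WT, while Itgb2 overlaps between the genotypes throughout.

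**Figure D2:**
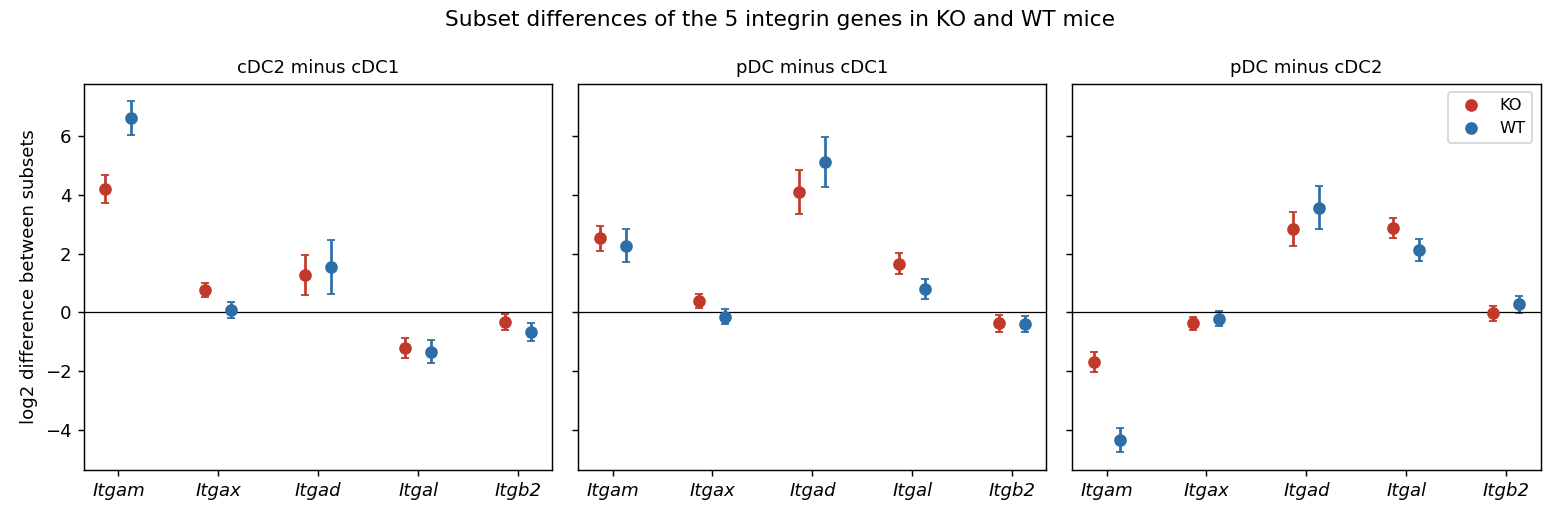
Log2 difference between subsets for each integrin gene, in KO and in WT mice, with bars of 1 standard error. The KO and WT points of Itgam part most where cDC2 is 1 of the subsets (4.19 in KO and 6.59 in WT for cDC2 minus cDC1), and for pDC minus cDC1 those of Itgad are at 4.10 in KO and 5.11 in WT and those of Itgal at 1.66 in KO and 0.79 in WT.

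Counted over the family, 1 of the 5 genes passed the threshold between the genotypes in cDC1, where 0.0255% of all genes did, 0 in cDC2 (0.119% of all genes) and 1 in pDC (0.0681%). The gene was Itgam in both, and since it was listed for this difference, nothing is read from these counts. At an unadjusted p under 0.05 stood 3.83% of all genes in cDC1, 13.3% in cDC2 and 10.6% in pDC. In cDC2, 2 of the 5 integrin genes did, Itgam and Itgax, and DESeq2 and limma voom called 0 there. The count in cDC1 was 0 without any 1 of 11 of the 15 libraries: it stayed at 1 without cDC1 WT 1, pDC KO 3, pDC WT 1 or pDC WT 2. Of the 15 comparisons of a gene's genotype difference between 2 subsets, 0 passed with edgeR's test and DESeq2 called 1. Itgam held the 2 with an unadjusted p under 0.05 in edgeR's test, and nothing is read from these either. Over all genes these contrasts called 0.00851% for cDC2 minus cDC1, 0% for pDC minus cDC1 and 0% for pDC minus cDC2, and 8.46%, 8.26% and 8.41% had an unadjusted p under 0.05. Between subsets, 7 of 15 gene comparisons passed in KO mice, where 1.27%, 21.5% and 25.9% of all genes did for cDC2 minus cDC1, pDC minus cDC1 and pDC minus cDC2. In WT mice 7 of 15 passed too, where 8.73%, 27.7% and 23.6% of all genes did. Of these 7, 3 in each genotype were Itgam, used in the sort.

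The genotype difference of Itgam was next set beside that of the genes around it. Within 250 kb of Itgax the table held 22 genes, of which 18 could be tested and Prss53, Gm21974, Prss8 and Slc5a2 had too few reads. Of the 18, edgeR's test called Itgam and Cox6a2 in cDC1, where it called 0.0255% of all genes, 0 in cDC2 (0.119%) and Itgam in pDC (0.0681%). Both genes were known beforehand to differ, so nothing is read from these counts. The 18 had a median log2 difference of 0.03 (cDC1), 0.60 (cDC2) and 0.36 (pDC), beside 0.00, 0.09 and 0.00 over all tested genes. Without Itgam and Cox6a2, the medians of the other 16 were −0.04, 0.49 and 0.31. Closer in, within 100 kb of Itgax, 8 genes were tested, with medians of 0.84, 1.06 and 0.44 in the same order. The 6 of them other than Itgam and Cox6a2 had medians of 0.33, 0.83 and 0.40, and none of the 6 passed the test.

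Cox6a2, the heart and muscle form of a subunit of cytochrome c oxidase, lies on the reverse strand inside the span of Itgad, at chr7:128205435-128206387, and 70 of its exon bases, 10.3% of them, are shared with Itgad. It stood at 33 and 33.7 CPM in cDC1 KO against 1.17 and 0 CPM in cDC1 WT, at 23.7, 24.7 and 28.2 CPM in cDC2 KO against 8.98 and 2.56 CPM in cDC2 WT, and at 1108, 1161 and 833 CPM in pDC KO against 448, 431 and 272 CPM in pDC WT. Like Itgam, it was higher in each KO library than in each WT library of its subset. The log2 differences of Cox6a2 were 5.94 ± 0.71 in cDC1, 2.20 ± 0.50 in cDC2 and 1.43 ± 0.38 in pDC. Whether the counting used the strand is not given, so Itgad and Cox6a2 reads in the shared bases cannot be assigned with certainty. Across the 15 libraries, which share subset and genotype, Itgad and Cox6a2 had a Pearson r of 0.88 in log2 CPM.

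Every KO library lay above every WT library in all 3 subsets for 52 of 11746 genes, 0.443%, and 2 of these, Itgam and Cox6a2, were among the 18 tested genes within 250 kb of Itgax. Both were known to differ when the window was drawn. By subset alone, 19.3% of all genes had KO above WT in cDC1, 23.1% in cDC2 and 5.76% in pDC. Within 1000 kb, where 55 genes were tested, 1 more did so, Ccdc189, a gene of sparse counts with 1.96 CPM in cDC1 KO and 0.534 CPM in cDC1 WT, and 0 CPM in WT in the other subsets. Genes between or beside the integrins did not all separate KO from WT in every subset, also where their fitted differences were above 0. Armc5, which lies 86.7 kb past Itgax, stood at 39.9 and 38.8 CPM in cDC1 KO and 22 and 24.2 CPM in cDC1 WT, but its difference of 0.77 ± 0.33 did not pass the test (adjusted p = 1) and was 0.40 ± 0.30 in cDC2 and 0.20 ± 0.26 in pDC.

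On the upstream side, Pycard, the adaptor of inflammasomes, had differences of 0.08 ± 0.31 (cDC1), 0.79 ± 0.28 (cDC2) and 0.35 ± 0.25 (pDC). Bckdk, a kinase of branched-chain amino acid breakdown, had −0.45 ± 0.46, 1.33 ± 0.45 and −0.28 ± 0.37, and Zfp646 had −0.49 ± 0.41, −0.67 ± 0.37 and −0.59 ± 0.33 in the same order. Rgs10, a regulator of G protein signalling downstream of the integrins, had −0.39 ± 0.33, −0.10 ± 0.30 and 0.58 ± 0.27. None of these passed the test in any subset (adjusted p from 0.224 for Bckdk in cDC2 to 1). Of the remaining neighbours, Vkorc1, Kat8, Prss36, Trim72, 9130023H24Rik, Tgfb1i1 and BC017158 had group means of at most 7.16 CPM and none passed the test.

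**Figure D3:**
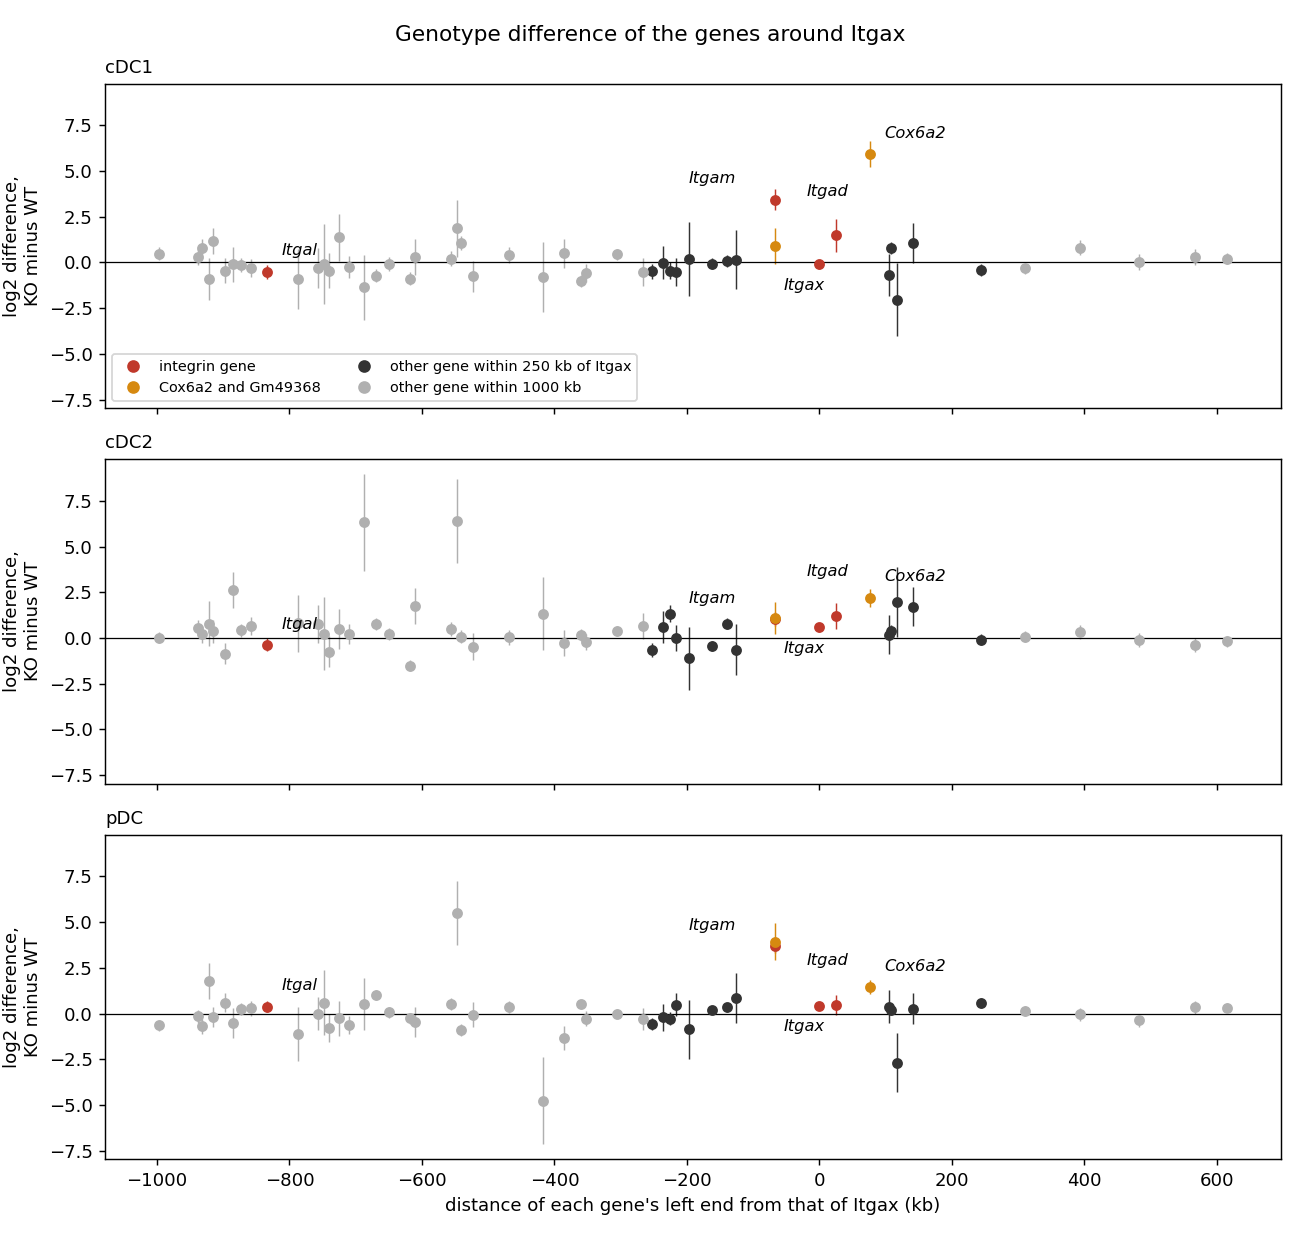
Log2 difference of KO minus WT, with bars of 1 standard error, for the tested genes within 1000 kb of Itgax, against the distance in kb of each gene's left end from that of Itgax, in 3 panels for cDC1, cDC2 and pDC, with integrin genes, Cox6a2 and Gm49368, other genes within 250 kb and more distant genes in separate colours. Itgam and Cox6a2 stand above the genes around them in cDC1, at 3.43 and 5.94, while Itgax between them is at −0.11.

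Among the other integrin genes tested, none passed the threshold between KO and WT. Of 21 other alpha and beta subunits, 17 were tested and 0 passed in cDC1, cDC2 or pDC with edgeR's test, with 1, 1 and 3 at an unadjusted p under 0.05 and median log2 differences of −0.25, −0.32 and 0.00. At that unadjusted level stood 3.83%, 13.3% and 10.6% of all genes. Between WT subsets, 1 of these subunits was higher and 7 lower in pDC than in cDC1, where 27.7% of all genes were called in either direction, and 1 was higher and 5 lower in pDC than in cDC2, where 23.6% were. The higher one was Itgb3, the beta3 chain of the vitronectin receptor, with 41.8, 34.2 and 18.1 CPM in pDC WT against 1.17 and 2.37 CPM in cDC1 WT, a difference of 4.10 ± 0.51 (adjusted p = 1.14e-05). Itgae, the CD103 chain that binds E-cadherin and a cDC1 marker, was at 1.56, 0.903 and 1.36 CPM in pDC WT against 76.9 and 56.1 CPM in cDC1 WT, a difference of −5.68 ± 0.65 (adjusted p = 4.07e-06). Itga1, a collagen receptor chain, differed by −6.08 ± 0.97 between the same groups (adjusted p = 0.00026). In WT cDC2 minus cDC1, 0 of the 17 passed, with 1 at an unadjusted p under 0.05, beside 8.73% and 25.4% of all genes. There the smallest p-values were those of Itgb3, at 1.24 ± 0.54 (adjusted p = 0.152), Itga4, at 0.57 ± 0.27 (adjusted p = 0.199), and Itga9, at 2.74 ± 1.51 (adjusted p = 0.273). Itgb3 was the gene of this list with the smallest p between the genotypes in cDC1 and cDC2, at 1.29 ± 0.53 and 1.52 ± 0.44, and neither passed (adjusted p = 1 and 0.158).

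Integrins are switched on from inside the cell by talin, kindlin-3 and the GTPase Rap1, and they signal through Src-family kinases and Syk once bound. Syk, the tyrosine kinase downstream, was higher in pDC than in cDC1 in WT mice by 2.96 ± 0.31 (adjusted p = 1.98e-06), Fgr by 3.20 ± 0.35 (adjusted p = 3.04e-06), and the adaptor genes Tyrobp and Fcer1g by 2.34 ± 0.26 and 2.52 ± 0.31 (adjusted p = 3.15e-06 and 9.44e-06). In WT pDC minus WT cDC2, Tyrobp differed by 2.67 ± 0.26 (adjusted p = 1.34e-06) and Fgr by 1.62 ± 0.32 (adjusted p = 0.00133). In WT cDC2 minus WT cDC1, Syk differed by 1.81 ± 0.31 (adjusted p = 0.0032), Fcer1g by 1.58 ± 0.31 (adjusted p = 0.00628) and Fgr by 1.58 ± 0.35 (adjusted p = 0.0107). Over the 16 genes of the list, all tested, 5 genes were higher and 4 lower in WT pDC than in WT cDC1, 5 higher and 3 lower in WT pDC than in WT cDC2, and 3 higher and 0 lower in WT cDC2 than in WT cDC1, beside 27.7%, 23.6% and 8.73% of all genes called in either direction. Between the genotypes, Syk averaged 389 ± 33.4 CPM in pDC KO and 446 ± 16 CPM in pDC WT (SD, n = 3 each), a difference of −0.20 ± 0.25 (adjusted p = 0.853). Tyrobp averaged 1622 ± 146 CPM in pDC KO and 1304 ± 160 CPM in pDC WT (0.31 ± 0.21, adjusted p = 0.644). Neither Syk, Tyrobp, Fcer1g nor Fgr passed the test between KO and WT in any subset.

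Of 25 activation and linkage genes, 22 were tested and 0 passed between the genotypes in any subset, with 0, 5 and 1 at an unadjusted p under 0.05 in cDC1, cDC2 and pDC. Over all genes that unadjusted share was 3.83%, 13.3% and 10.6%. In cDC2 the smallest p was that of Ilk, the integrin-linked kinase, at 39.2 ± 4.16 CPM in KO (n = 3) and 13.2 ± 0.486 CPM in WT (n = 2), a difference of 1.57 ± 0.31 (adjusted p = 0.0514). Between WT subsets, Fyb, an adaptor that couples T cell and Fc receptors to integrin activation, was higher in pDC, at 3797 ± 83.9 CPM in pDC WT (n = 3) and 295 ± 48.6 CPM in cDC1 WT (n = 2), a difference of 3.69 ± 0.27 (adjusted p = 2.97e-08). Flna, filamin A, which competes with talin for integrin tails, was lower, at 29 ± 9.28 CPM in pDC WT and 193 ± 2.26 CPM in cDC1 WT, a difference of −2.74 ± 0.29 (adjusted p = 1.79e-06). Rap1a differed by 1.19 ± 0.28 between WT pDC and WT cDC2 (adjusted p = 0.0047). In WT cDC2 minus WT cDC1, Ilk differed by −2.10 ± 0.34 (adjusted p = 0.00212), Pxn, the gene of paxillin, by −1.86 ± 0.36 (adjusted p = 0.00504) and Apbb1ip, which links Rap1 to talin, by 1.41 ± 0.38 (adjusted p = 0.0291).

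Few genes of the ligands were read in these cells: of 14, 6 were tested and 0 passed between the genotypes in any subset, with 1 in each at an unadjusted p under 0.05. Icam1, the ligand of LFA-1, stood at 102 ± 24.2 CPM in cDC1 KO and 89.6 ± 18.1 CPM in cDC1 WT (n = 2 each), at 93.6 ± 26.5 CPM in cDC2 KO (n = 3) and 43.2 ± 16.8 CPM in cDC2 WT (n = 2), and at 56.5 ± 35.7 CPM in pDC KO and 43.4 ± 3.43 CPM in pDC WT (n = 3 each). In WT mice F11r, the junctional molecule JAM-A bound by LFA-1, was lower in pDC than in cDC2 (adjusted p = 8e-06), with 0, 0.258 and 0 CPM in pDC WT and 12.6 and 28.6 CPM in cDC2 WT. C3, the complement protein whose fragment binds CR3 and CR4, was higher in cDC2 than in cDC1 by 4.54 ± 1.27 (adjusted p = 0.0341) and lower in pDC than in cDC2, at −3.44 ± 0.98 (adjusted p = 0.0163). Thy1 was lower in cDC2 than in cDC1, at −2.59 ± 0.56 (adjusted p = 0.00923), and higher in pDC than in cDC2, at 2.26 ± 0.52 (adjusted p = 0.00412). Vcam1 was at 1.36 to 5.47 CPM on average in every group and passed no test.

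Factors that act on myeloid integrin promoters or on DC subsets showed subset differences and no genotype call. Of 16, all tested, 0 passed between the genotypes, with 1, 7 and 2 at an unadjusted p under 0.05 in cDC1, cDC2 and pDC. At that unadjusted level stood 3.83%, 13.3% and 10.6% of all genes in the same order. Spi1, which encodes PU.1, was at 19.2 ± 5.26 CPM in pDC KO and 16.7 ± 2.79 CPM in pDC WT (n = 3 each), a difference of 0.20 ± 0.26 (adjusted p = 0.855), in the subset where Itgam differed by 3.68 ± 0.38. It was at 223 ± 25.9 CPM in cDC1 KO and 224 ± 19.3 CPM in cDC1 WT (−0.01 ± 0.30), and at 288 ± 24.6 CPM in cDC2 KO and 160 ± 11.7 CPM in cDC2 WT (0.85 ± 0.28, adjusted p = 0.219). In WT mice Spi1 was lower in pDC than in cDC1, at −3.74 ± 0.29 (adjusted p = 5.46e-08). Its relative Spib was higher in pDC than in cDC1 by 5.28 ± 0.37 (adjusted p = 1.77e-08), as were Tcf4, the factor of the pDC lineage, by 3.89 ± 0.28 (adjusted p = 2.22e-08) and Zeb2 by 4.69 ± 0.37 (adjusted p = 8.5e-08). In WT cDC2 minus WT cDC1, Zeb2 differed by 3.28 ± 0.36 (adjusted p = 6.59e-05), Irf8 by −2.08 ± 0.37 (adjusted p = 0.00378) and Runx1 by 1.30 ± 0.36 (adjusted p = 0.0311). Between the genotypes in cDC2, the smallest p-values of the list were those of Spib, Tcf4 and Spi1. Spib averaged 36.2 ± 3.12 CPM in cDC2 KO (n = 3) and 13.4 ± 5.1 CPM in cDC2 WT (n = 2). Tcf4 averaged 704 ± 22.9 CPM and 1170 ± 122 CPM in the same groups.

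**Figure D4:**
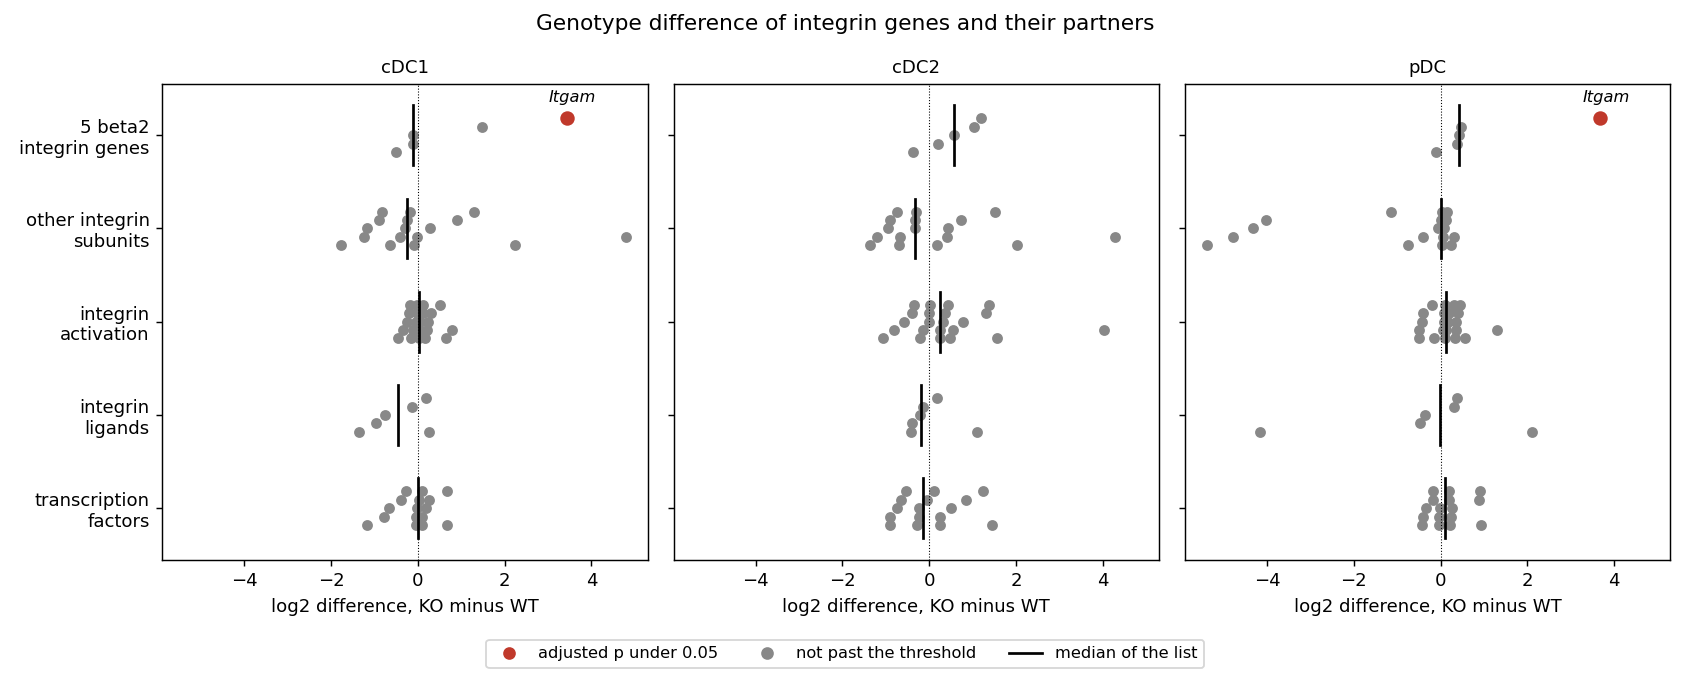
Log2 difference of KO minus WT for each tested gene of the beta2 integrin family and of 4 lists of partners, in 3 panels for cDC1, cDC2 and pDC, with a bar at the median of each list. Coloured points passed an adjusted p of 0.05: Itgam in cDC1 at 3.43 and in pDC at 3.68. Itgam was listed for this difference, so nothing is read from its passing, and the cDC1 call was lost under most other settings.

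The genes whose log2 CPM ran most like each member over the 15 libraries differed from member to member. These correlations are descriptions over libraries that share subset and genotype. For Itgam they were Spon1 (Pearson r 0.93), the interferon-inducible gene Ifi206 (0.88) and Oasl2 (0.87), another interferon-inducible gene. Oasl2 averaged 110 CPM in cDC2 KO and 54.4 CPM in cDC2 WT, 55 CPM in pDC KO and 23.6 CPM in pDC WT, and 17.3 CPM in cDC1 KO and 9.85 CPM in cDC1 WT. Spon1, Ifi206 and Oasl2 passed the test between the genotypes in no subset (adjusted p 0.3 to 1). Spon1 and Oasl2 were, like Itgam, among the 0.443% of genes with every KO library above every WT library in all 3 subsets. Ifi206 was not. All 3 were picked by likeness to Itgam over these same libraries, so nothing is read from this. For Itgax they were 1600014C10Rik (0.85), Osgep (0.82) and Mapkapk3 (0.81). For Itgad they were Nrp1 (0.97), the gene of the surface receptor neuropilin-1, Ncf1 (0.96), a subunit of the phagocyte oxidase, and Smim5 (0.96). For Itgal they included P2ry14 (0.95) and Nav2 (0.95), and for Itgb2 they were Map2k6 (0.88), Zcchc4 (0.87) and Ier5l (0.85). None of the members appeared among the 3 closest genes of another. Between members, r was 0.70 for Itgam with Itgax, 0.57 for Itgad with Itgal, −0.47 for Itgam with Itgal and −0.58 for Itgam with Itgb2.

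CD11b is also carried by macrophages, monocytes, neutrophils and NK cells, so markers of these cells were read beside Itgam. In pDC the summed level of 10 macrophage markers was 134 to 156 CPM in KO and 100 to 122 CPM in WT, with Adgre1 and Marco at 0 in KO and Marco at 0 in WT. Cd68 alone averaged 142 ± 12.1 CPM in pDC KO and 105 ± 11.6 CPM in pDC WT (SD, n = 3 each), and the 9 tested genes of the list had a median log2 difference of −0.55, with 4 above 0. The 10 monocyte and neutrophil markers summed to 2531 to 3583 CPM in pDC KO and 1760 to 3783 CPM in pDC WT, with Csf3r, Fcgr4 and Mpo at 0 in KO and S100a9, Fcgr4 and Mpo at 0 in WT. The NK cell markers summed to 147 to 222 CPM in pDC KO and 150 to 176 CPM in pDC WT. Their median log2 difference in pDC was 0.05, with 4 of 8 tested genes above 0. Of these sums, that of the macrophage markers was higher in every KO than in every WT pDC library, as Itgam was. Most of the macrophage sum was Cd68, and the genes of that list did not move together. The part of these markers in the Itgam difference was not tested. In cDC1 the macrophage markers ran the other way, with 74.8 to 79.8 CPM in KO and 85.7 to 90.5 CPM in WT, and the monocyte and neutrophil markers overlapped, with 773 to 838 CPM in KO and 770 to 1122 CPM in WT. The NK cell markers summed to 48.9 to 67.8 CPM in cDC1 KO and 26.2 to 41.3 CPM in cDC1 WT, with a median log2 difference of 1.14 and 8 of 8 tested genes above 0, and their part was not tested. In cDC2 the macrophage markers summed to 173 to 213 CPM in KO and 154 to 161 CPM in WT, with a median log2 difference of −0.07 and 4 of 9 tested genes above 0. The monocyte and neutrophil markers summed to 1101 to 1422 CPM in cDC2 KO and 1015 to 1728 CPM in cDC2 WT, with a median of 0.84 and 6 of 9 above 0, and Ly6g at 0 in both. The NK cell markers summed to 165 to 229 CPM in cDC2 KO and 218 to 230 CPM in cDC2 WT, with a median of 1.71 and 6 of 8 above 0, and Ncr1, Klrb1c, Gzmb and Nkg7 at 0 in cDC2 WT. Most of each NK sum was Klrd1. It averaged 180 CPM in cDC2 KO and 214 CPM in cDC2 WT, and 172 CPM in pDC KO and 162 CPM in pDC WT. In cDC1 it averaged 42.7 CPM in KO and 26.7 CPM in WT. The part of these lists in the Itgam difference was not tested. The cDC2 list, which did not single out cDC2 here, summed to 347 to 369 CPM in cDC1 KO and 314 to 432 CPM in cDC1 WT, with a median log2 difference of 0.43 and 7 of 10 genes above 0, and its part was not tested. In pDC its median was −0.05, with 4 of 10 above 0. The T cell markers summed to 298 to 358 CPM in pDC KO and 340 to 441 CPM in pDC WT, and the 8 B cell markers to 13.5 to 28.5 CPM in pDC KO and 17.6 to 24.6 CPM in pDC WT. No gene of any marker list passed the test between the genotypes.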

How the data were processed

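Thymic DC were sorted and their RNA was made into barcoded, oligo-dT-primed, strand-specific libraries, pooled after first-strand synthesis, per the labels' protocols. The authors deposited raw read counts per Ensembl gene for 15 libraries. STAR, HTSeq, DESeq2 and mm10 are named in the submitters' processing notes, and no source used here gives their versions, the counter's strand setting or its treatment of overlapping genes. Ensembl identifiers were matched to symbols with GENCODE M21, and 21745 of 22165 matched. Totals of 3928164 to 12142712 counts set the precision, and PCR reads are not independent molecules.

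The counts were fitted with edgeR 4.0.16 (R 4.3.3): filterByExpr on 6 groups kept 11746 genes and removed 0.0538% of counts, TMM scaled the libraries, and 1 robust quasi-likelihood fit of all libraries gave 12 contrasts, two-sided, with Benjamini-Hochberg adjustment over all tested genes within each contrast. The script was tested on simulated data. DESeq2 1.42.0, limma 3.58.1 voom with sample weights, RLE scaling, other filters, a replicate block and leaving out each library were the alternatives. The 5 integrin genes and all lists were chosen with earlier results of these data known. Named genes, some of whose results are not reported here, were the members, the tested genes within 250 kb of Itgax, the 3 genes most like each member, every list gene called between the genotypes and the 3 with the smallest p in each WT subset comparison of a list. Ccdc189, Cd68 and Klrd1 were named after their values were seen.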

Additional observations from a re-analysis of the deposited data

How the results depend on the processing

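Of 404 values of single genes under another setting, 382 kept direction and side of the threshold, 13 fell short of it, 5 newly passed it and 4 changed sign. Counts of calls were judged by another rule, the size of their change, so they are not ranked against the single values. The count of integrin genes called in cDC1, 1, became 0 with RLE scaling, limma voom, a stricter filter, no robust estimation, the replicate block, the cDC1 libraries alone and Gm49368 reads added to Itgam, and ran from 0 to 1 over left-out libraries. The count of differing genotype differences, 0, became 1 with DESeq2 and 1 with no filter. The 3 calls among the neighbours became 5 with DESeq2 and 5 with no filter. The 1 call in the partner lists became 5 with DESeq2, 0 with limma voom, 3 with no filter and 0 with only the compared groups in the fit. The Itgax level in cDC1 WT moved to 164 CPM without TMM factors, from 158 CPM. Of the 15 genes most like a member, Spearman's rho kept 7. Over all genes, KO against WT gave 3, 14 and 8 calls in cDC1, cDC2 and pDC with edgeR's test, 18, 220 and 138 with DESeq2, and 8, 0 and 6 with limma voom. Itgb2 in KO pDC minus KO cDC2, −0.03, became 0.01 with RLE scaling, 0.01 with DESeq2, 0.03 with the stricter filter and 0.01 with only the compared groups. Over left-out libraries it ran from −0.09 to 0.05. Left-out libraries also turned the sign of Itgax KO minus WT in cDC1 (−0.23 to 0.01), WT cDC2 minus WT cDC1 (−0.11 to 0.21) and WT pDC minus WT cDC1 (−0.22 to 0.02). For Itgb2 they turned KO minus WT in cDC1 (−0.33 to 0.11) and cDC2 (−0.09 to 0.60) and WT pDC minus WT cDC2 (−0.03 to 0.66). DESeq2 and limma voom called Itgax in KO cDC2 minus KO cDC1, and both called Itgal there. The cause of these changes was not tested. Where a left-out library leaves 1 in a group, that one is assumed to vary like the others. Same-number correlations of KO with WT within a subset were −0.15 in cDC1, −0.0571 and 0.0888 in cDC2 and −0.0417 to 0.0229 in pDC. They cannot exclude a pairing: with 2 libraries per group the cDC1 values are equal by construction. Whether a number pairs samples across subsets was not checked. With the replicate block, calls over all genes were 1, 7 and 3. A crossed block in cDC1, chosen after seeing the data, called 1 gene and 0 of the integrins.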
